A study of Mus musculus with 18 samples.

Results

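Bone marrow of 8-week-old female C3H mice taken 6 h after 2 Gy of gamma-rays was compared with marrow of unirradiated mice of the same age. The 6 arrays were chosen by their sample titles, 3 for the irradiated and 3 for the unirradiated group, out of 18 arrays in the series. The other 12 arrays hold marrow of the same age at 24 h and marrow of 1-week-old mice, unirradiated, at 6 h and at 24 h, with 3 arrays in each group. All mice were of the C3H background strain and female, and the irradiated groups received their dose at 0.6 Gy per minute. The series text states that 3 mice were used at each time, but not whether each array holds 1 mouse, so the p-values measure the spread between these arrays. Total RNA of unsorted marrow was hybridised to 1-colour Agilent arrays. In such bulk samples, fewer cells of a type and less RNA per cell cannot be told apart.

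Ionising radiation breaks DNA, and the break is sensed by kinases that stabilise the transcription factor p53. p53 then induces genes that stop the cell cycle, repair or buffer the damage, restrain p53 itself, or start apoptosis through the mitochondrion. Bone marrow is among the tissues most sensitive to radiation, because its blood-forming cells divide quickly and its B-cell precursors enter apoptosis readily. It also holds cells that divide little, among them macrophages that clear dead cells and recycle iron, and stromal cells that form the niche of blood stem cells.

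Levels are given as log2 signal relative to the 75th percentile of the same array, so a level of 0 is a signal that 75% of the array's probes do not exceed. Differences are 6 h minus unirradiated on the log2 scale, with the standard error of a limma fit over all 18 arrays. Genes were called at a Benjamini-Hochberg adjusted p under 0.05 over 11884 tested genes. Of these, 5469 were called, or 46.0%, with 2843 higher at 6 h (23.9%) and 2626 lower (22.1%). With a difference of at least 2-fold as well, 474 genes were called (3.99%), of which 345 were higher (2.90%) and 129 lower (1.09%). Changes of that size were thus mostly increases. The irradiated and unirradiated arrays did not overlap for 6571 of the 11884 tested genes. The median of all tested genes was 0.02. It was 0.14 with no filter on dim genes and 0.001 among genes well above background on all 18 arrays. Dim genes thus tended upward at 6 h, which limits this median as a reference for lists of low signal. A gene was tested if well above background on every array of at least 1 group, which may be the group where it is high.

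On the 6 arrays 51.5% to 56.9% of probes were well above background, and arrays of the same group correlated at 0.992 to 0.995. The small number of arrays limits the precision. Markers of neutrophils, red cell precursors, B-lineage cells and macrophages were well above background on all 6 arrays, as the labelled tissue requires, and the liver genes Alb, Apoa1 and Ttr on none. Skeletal muscle genes varied between arrays of the same group. Acta1 of muscle stood at -2.75, -3.14 and -0.65 on the unirradiated arrays and at -1.80, -1.96 and -2.57 on the irradiated ones. By limma 0 of 14 tested muscle genes were called. The spread in that fit includes unirradiated replicate 2 of the 1-week group, where Acta1 stood at 6.27. The count therefore cannot tell whether muscle RNA differed between the groups compared here. In the gene lists below, where 0 genes are given as called in a direction by limma, 0 also passed an unadjusted p under 0.05 in that direction, except Pltp (-0.36 ± 0.16) and Klra7 (-0.48 ± 0.21), which were lower. The size of a difference near background depends on the background correction. With normexp and an offset of 50 on 17 arrays, Inka2 differed by 2.23, Ccl2 by 1.92, Ccn1 by 1.91, Ptx3 by 1.59, Mmp2 by 1.56, Grb7 by -2.11 and Cd79a by -0.57, all still called in the same direction as in the values below.

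**Figure D1:**
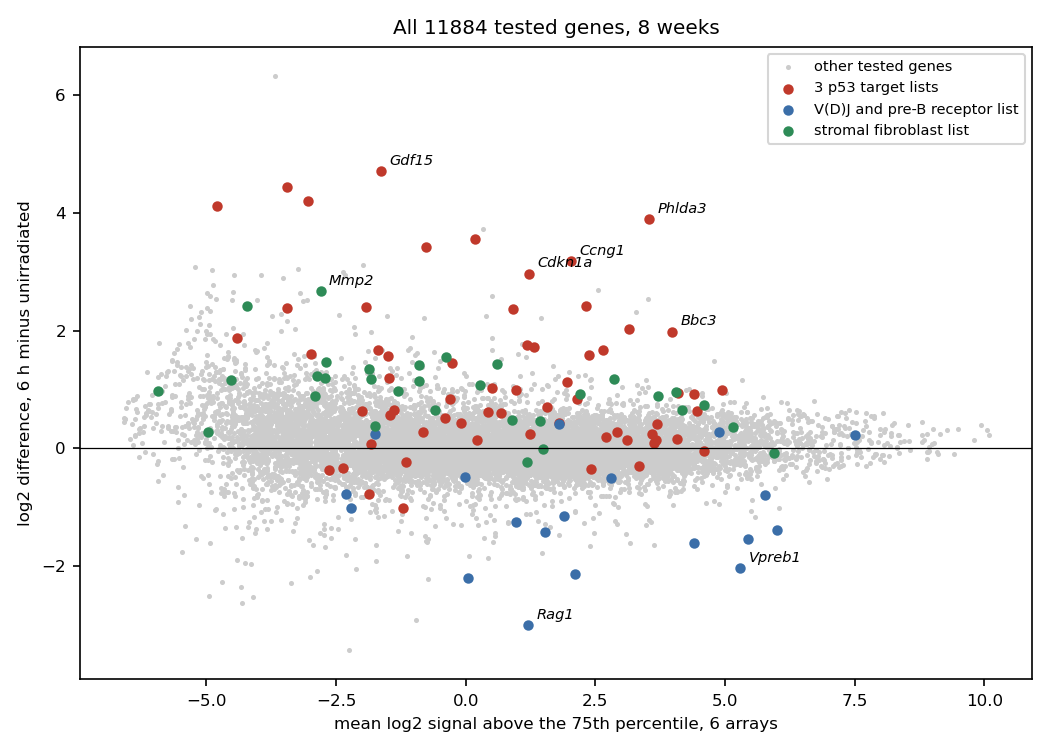
Each point is 1 of the 11884 tested genes, with its mean log2 signal over the 6 arrays on the horizontal axis and its log2 difference, 6 h after 2 Gy minus unirradiated, on the vertical axis. Genes of the p53 lists (red) extend to a difference of 4.71 for Gdf15, while genes of the V(D)J recombination and pre-B receptor list (blue) extend down to -3.00 for Rag1.

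The p53 arrest and feedback genes rose strongly, and Trp53 transcript itself did not pass the test. Trp53 stood at 0.14, 0.18 and 0.19 in unirradiated marrow and at 0.26, 0.13 and 0.03 at 6 h (difference -0.03 ± 0.10, adjusted p = 0.836). Its arrays overlapped. Cdkn1a, which encodes the cyclin-dependent kinase inhibitor p21, rose from -0.27, -0.40 and -0.14 to 2.55, 2.89 and 2.66, a 7.82-fold increase (2.97 ± 0.16, adjusted p = 9.93e-10). Mdm2, the ubiquitin ligase that degrades p53, was already well expressed and rose by less, from 1.72, 1.72 and 1.76 to 2.40, 2.64 and 2.67 (0.83 ± 0.09, adjusted p = 1.61e-06). Phlda3, an inhibitor of the kinase Akt, had the smallest p of the list. Its levels were 1.68, 1.52 and 1.57 before and 5.29, 5.49 and 5.68 after irradiation, 14.9-fold higher (3.90 ± 0.07, adjusted p = 1.11e-15). Zmat3, which encodes an RNA-binding protein, went from -1.61, -1.63 and -1.57 to 1.88, 1.86 and 2.13 (3.56 ± 0.07). Ccng1, cyclin G1, went from 0.32, 0.52 and 0.48 to 3.54, 3.65 and 3.66, a 9.04-fold increase (3.18 ± 0.08, adjusted p = 2.4e-14). In each of these but Trp53, the lowest irradiated array lay well above the highest unirradiated one.

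Of the 27 measured genes of this arrest and feedback list, 19 rose and 4 fell, with a median of 0.65 against 0.02 over all tested genes. Psrc1 (2.03 ± 0.08), the Polo-like kinase gene Plk2 (1.57 ± 0.10), the stress sensor Sesn2 (1.12 ± 0.10) and Ddit4, which restrains mTORC1 (0.94 ± 0.08), were among those that rose. The members that fell were Rrm2b (-0.77 ± 0.17), the p53-induced subunit of ribonucleotide reductase, Sfn (-0.35 ± 0.07), Ccng2 (-0.30 ± 0.10) and the damage-recognition gene Ddb2 (-0.23 ± 0.08). Rrm2b was at -1.40, -1.43 and -1.61 in unirradiated marrow and at -2.29, -2.35 and -2.11 at 6 h, so its arrays did not overlap. The calls of Ccng2 and Ddb2 ended when single arrays were left out: for Ccng2 unirradiated replicate 2 or 3 or irradiated replicate 3 (adjusted p = 0.0773 to 0.127), and for Ddb2 any array but irradiated replicate 2 (0.0526 to 0.096). That of Sfn ended when its probes were averaged (0.33).

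The death branch of the p53 response rose as a group, with 10 of 13 measured members higher, 2 lower and a median of 1.02. Bbc3, which encodes the BH3-only protein PUMA, rose from 2.90, 3.07 and 3.0 to 4.89, 5.01 and 5.02, or 3.96-fold (1.98 ± 0.08, adjusted p = 1.18e-11). Bax, the pore-forming effector, rose from 1.80, 1.87 and 1.75 to 3.62, 3.46 and 3.36, or 3.19-fold (1.68 ± 0.09, adjusted p = 5.41e-10). Fas, a death receptor, moved less but as evenly, from 1.19, 1.25 and 1.19 to 1.94, 1.94 and 1.89 (0.71 ± 0.07, adjusted p = 8.11e-07). The nuclease gene Aen (1.75 ± 0.08), Ei24 (1.59 ± 0.08), Perp (1.20 ± 0.13), Pmaip1, which encodes NOXA (1.02 ± 0.14), and Apaf1 of the apoptosome (0.43 ± 0.09) rose as well. Trp53i11 fell 2.01-fold (standard error 0.13). The metalloreductase gene Steap3 fell by less (-0.33 ± 0.13), and its call ended without any single array but irradiated replicate 3 (adjusted p = 0.0616 to 0.145) and its sign turned under another background correction (0.02).

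The remaining p53 effectors held the largest increases named here. Of 23 measured members 20 rose and 0 fell by limma, with a median of 1.00. Restricted to members well above background on all 18 arrays, 15 rose and 0 fell, with a median of 0.64. Gdf15, a secreted stress cytokine of the TGF-beta superfamily, stood at -3.52, -4.00 and -4.42 on the unirradiated arrays. At 6 h it stood at 0.33, 0.92 and 0.93, 26.1-fold higher (4.71 ± 0.39, adjusted p = 1.31e-07). Some genes were not well above background before irradiation, and for these a bound is given: the irradiated mean over unirradiated arrays that were each raised to the weakest signal well above background on that array. By this rule Inka2, which encodes an inhibitor of the kinase Pak4, rose at least 12.6-fold, the carnitine palmitoyltransferase gene Cpt1c at least 10.3-fold and Tnfsf4, which encodes the OX40 ligand, at least 3.63-fold. Hebp2, a haem-binding protein gene, went from -2.39, -2.27 and -2.74 to 1.08, 0.99 and 0.79 (3.42 ± 0.12), and Dglucy (2.41 ± 0.07) and Dcxr (2.37 ± 0.08) rose 5.33-fold and 5.19-fold.

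**Figure D2:**
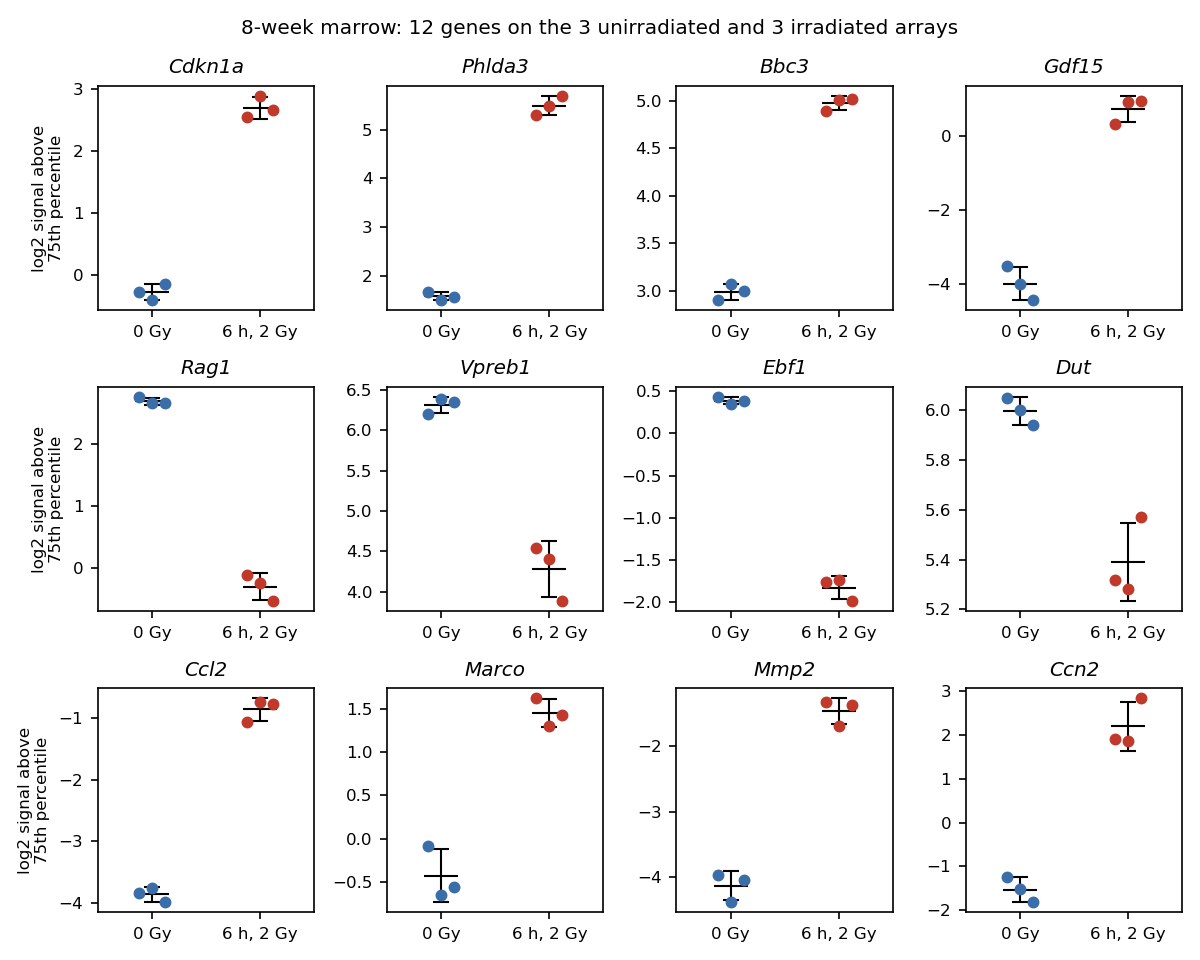
Each panel shows 1 gene, with the log2 signal above the array's 75th percentile on the vertical axis, 1 point per array, and the mean with its SD as bars, for the 3 unirradiated (blue) and the 3 irradiated (red) arrays. In all 12 panels the groups do not overlap, as in Cdkn1a (-0.40 to -0.14 against 2.55 to 2.89) and Rag1 (2.66 to 2.76 against -0.54 to -0.12). The same held for 6571 of 11884 tested genes, and the largest changes were named only where the groups did not overlap.

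Promoter sequences of these genes were read from RefSeq (GRCm38.p6), as the 250 bases before to 50 bases after each start site. Of 11884 tested genes, 9558 matched by symbol. The p53 consensus, a pair of decamers up to 13 bases apart on either strand, occurred with at most 3 mismatches in the promoters of 23 of the 53 matched genes of the p53 lists (43.4%), against 17.4% of 27025 genes with a promoter. With at most 2 mismatches it occurred in 10 of the 53 (18.9%), against 4.71% of all. The stretches below show the best match of 5 genes that rose and of Sesn1, whose change did not pass the test, 5′ to 3′ on the gene's strand with the decamers in capitals.
Cdkn1a, chr17:29090886-29090957, plus strand, 0 mismatches: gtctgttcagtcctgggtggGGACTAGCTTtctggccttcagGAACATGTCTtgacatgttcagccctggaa
Ccng1, chr11:40755442-40755501, minus strand, 1 mismatch: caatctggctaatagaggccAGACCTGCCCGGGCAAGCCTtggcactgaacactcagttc
Inka2, chr3:105705335-105705406, plus strand, 1 mismatch: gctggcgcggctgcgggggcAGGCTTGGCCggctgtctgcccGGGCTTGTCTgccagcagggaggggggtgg
Bax, chr7:45467070-45467134, minus strand, 2 mismatches: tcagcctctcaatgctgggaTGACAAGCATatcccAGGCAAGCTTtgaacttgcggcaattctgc
Bbc3, chr7:16309466-16309525, plus strand, 3 mismatches: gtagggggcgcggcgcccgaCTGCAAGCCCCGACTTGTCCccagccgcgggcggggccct
Sesn1, chr10:41887233-41887295, plus strand, 2 mismatches: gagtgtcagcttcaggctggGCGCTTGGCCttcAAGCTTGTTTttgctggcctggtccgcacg
The match in Cdkn1a lies 73 to 42 bases upstream of the start site with 12 bases between its decamers. In Ccng1 the decamers adjoin, 195 to 176 bases upstream. Sesn1 has fewer mismatches than Bbc3 in its match, yet stood at 3.60, 3.59 and 3.58 before and at 3.55, 3.86 and 3.81 after irradiation (0.15 ± 0.07, adjusted p = 0.0685). Such a match describes letters in the window and is neither a binding site nor a cause. The 6 genes were chosen with their values known.

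The BCL2 family moved by member. Of 17 measured genes 9 rose, among them Bax, Bbc3 and Pmaip1 of the p53 lists, and 2 fell. The prosurvival gene Bcl2a1b rose (0.81 ± 0.09); its near-identical copies may share the probe's signal. Bmf, a BH3-only gene, went against Bbc3 and Bax, from 2.53, 2.52 and 2.55 down to 1.12, 1.04 and 1.01 (-1.47 ± 0.08, adjusted p = 5.56e-10). Another Bmf probe gave a smaller decrease of -0.21. Among genes of caspases and their partners, 4 of 21 rose, Apaf1 included, and 6 fell. Both counts are near the shares over all tested genes (23.9% higher and 22.1% lower). Gsdme was highest at 0.61 ± 0.09, and Cycs, cytochrome c, differed by -0.32 ± 0.07. Genes of tumour necrosis factor ligands and receptors rose more often, 13 of 23 against 2 that fell. Restricted to members well above background on all 18 arrays, 9 rose and 2 fell. Fas, Tnfrsf10b and Tnfsf4 of this list are also in the p53 lists. Tnfsf8, the CD30 ligand gene, rose at least 3.58-fold, Tnfrsf10b at least 2.20-fold, Tnf by 1.24 ± 0.21 and Fasl by 0.91 ± 0.23, which was not called when its probes were averaged (0.97, adjusted p = 0.069).

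The DNA replication genes fell together but by small amounts, while most mitosis genes did not pass the test. Of 43 measured replication genes 39 fell and 0 rose by limma, with none of the 43 above its unirradiated mean, and the median was -0.39. The mean level over the list was 2.98, 2.93 and 2.94 on the unirradiated arrays and 2.43, 2.41 and 2.72 on the irradiated ones, so replicate 3 of the irradiated group lay closest to the controls. The replicative helicase gene Mcm2 followed that order, at 3.52, 3.47 and 3.40 before and 2.94, 2.98 and 3.32 after irradiation (-0.39 ± 0.09, adjusted p = 0.00244). Dut, which encodes the enzyme that keeps uracil out of DNA, fell from 6.05, 6.00 and 5.94 to 5.32, 5.28 and 5.57 (-0.61 ± 0.07, adjusted p = 9.27e-06). The DNA polymerase genes Pold2 (-1.02 ± 0.16), Pola1 (-0.74 ± 0.10) and Pold1 (-0.68 ± 0.09) and the thymidine kinase gene Tk1 (-0.49 ± 0.07) fell as well. The decreases in this list numbered 6 with normexp on all 18 arrays, a setting that called 759 genes in all, and 30 to 42 under the other settings.

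Of 43 measured mitosis genes 6 rose, 3 fell and 34 did not pass, with a median of 0.02. Cyclin B1 gene Ccnb1 stood at 2.55, 2.44 and 2.55 before and 2.41, 2.59 and 2.77 after irradiation (0.08 ± 0.09, adjusted p = 0.484). Its arrays overlapped. Ube2c, the ubiquitin-conjugating enzyme gene of the anaphase-promoting complex, was the exception in size, rising from 4.77, 4.67 and 4.79 to 5.68, 5.99 and 6.05 (1.16 ± 0.09, adjusted p = 5.93e-08). The securin gene Pttg1 rose too (0.47 ± 0.08), whereas Bub1b (-0.37 ± 0.09) and the separase gene Espl1 (-0.37 ± 0.11) fell. Espl1 was not called without irradiated replicate 2 (adjusted p = 0.0531). The mitosis increases numbered 1 with normexp on all 18 arrays and, under the other settings, 3, with the 6 arrays fitted alone or without unirradiated replicate 2 or irradiated replicate 3, to 13, without irradiated replicate 1. The mitosis decreases numbered 7 without irradiated replicate 3. Among G1 regulators, 6 of 25 rose and 10 fell. The share of increases is near the 23.9% over all tested genes. E2f1, an activator of S-phase genes, went from 1.24, 1.20 and 1.22 to 0.54, 0.43 and 0.62 (-0.69 ± 0.06), and Cdk4 fell (-0.50 ± 0.07). Ccnd2 (0.78 ± 0.10) and the retinoblastoma-family gene Rbl2 (0.77 ± 0.07) rose.

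The promoters of both groups carried known cell cycle motifs. The E2F letters TTTGGCGC or TTTCCCGC, on either strand, occurred in 11 of 36 matched replication genes (30.6%), against 3.24% of matched tested genes and 1.8% of all genes with a promoter. The CHR letters TTTGAA, a motif of late cell cycle genes, occurred in 26 of 36 matched mitosis genes (72.2%), against 14.6% of matched tested genes. The motifs may overlap each other or a further copy, and overlaps were not removed. The E2F matches of a polymerase and 2 helicase genes that fell are shown with the motif in capitals.
Pola1, chrX:93632266-93632313, minus strand: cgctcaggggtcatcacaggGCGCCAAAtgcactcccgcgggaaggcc
Mcm5, chr8:75109340-75109387, plus strand: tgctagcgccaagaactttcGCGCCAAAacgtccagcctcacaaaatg
Mcm6, chr1:128359725-128359835, minus strand: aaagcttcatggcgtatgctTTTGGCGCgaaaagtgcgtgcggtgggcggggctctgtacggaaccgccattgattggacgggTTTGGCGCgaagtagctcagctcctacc
Mcm6 holds 2 copies, 110 to 40 bases upstream of its start, and its level went from 6.72, 6.70 and 6.71 to 6.19, 6.21 and 6.54 (-0.39 ± 0.08, adjusted p = 0.000899). Mcm5 fell from 4.46, 4.38 and 4.49 to 4.01, 3.86 and 4.14 (-0.44 ± 0.12, adjusted p = 0.00613). These 2 helicase genes were chosen for their motif after their values were seen.

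Genes that sense and repair DNA damage fell more often than they rose, p53 targets apart. Of 27 measured damage-sensing genes 9 fell, among them the checkpoint kinase gene Chek1 (-0.62 ± 0.12), Rad1 (-0.55 ± 0.11) and Nbn of the break-binding MRN complex (-0.48 ± 0.11), and 1 rose, Ep300 (0.22 ± 0.08), which was not called when its probes were averaged (0.13) or without unirradiated replicate 2 or 3 or irradiated replicate 2 or 3 (adjusted p = 0.0649 to 0.126). In excision and mismatch repair 18 of 31 fell and 3 rose. The decreases included Neil1 (-1.18 ± 0.12), Xrcc1 (-0.80 ± 0.06) and Parp1 (-0.76 ± 0.10), and the increases were the nucleotide excision genes Ercc5 (0.56 ± 0.11), Xpa (0.31 ± 0.08) and Xpc (0.25 ± 0.06). In homologous recombination and the Fanconi pathway 11 of 28 fell (18 without irradiated replicate 3) and 2 rose, with Xrcc3 lowest (-0.88 ± 0.11). In end joining, which repairs breaks without a template, 4 of 12 genes fell and 3 rose, of which 1 was left without unirradiated replicate 1 or 2 or irradiated replicate 2. Over all tested genes 22.1% were lower and 23.9% higher, so these end joining counts are not far from the general shares. The ligase gene Lig4 fell from 1.19, 1.13 and 1.13 to 0.03, -0.06 and -0.13 (-1.21 ± 0.08), and Xrcc6, which encodes Ku70, from 0.98, 1.00 and 1.14 to -0.04, -0.19 and -0.04 (-1.14 ± 0.11). Xrcc5, which encodes the partner protein Ku80, fell by less (-0.27 ± 0.09) and was not called without unirradiated replicate 1 or irradiated replicate 1 or 2 (adjusted p = 0.0526 to 0.0903).

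Early B-lineage genes had the lowest median of the 70 lists. Of 19 measured genes of V(D)J recombination and the pre-B receptor 15 fell and 3 rose, with a median of -1.14, and 11 of the 15 fell at least 2-fold, against 1.09% of all tested genes. The mean over the list was 2.89, 2.90 and 2.97 on the unirradiated arrays and 1.98, 1.90 and 1.70 at 6 h. Rag1, which encodes a subunit of the recombinase that cuts antigen receptor genes, fell from 2.76, 2.66 and 2.67 to -0.12, -0.25 and -0.54, or 8.01-fold (-3.00 ± 0.10, adjusted p = 2.8e-12). The surrogate light chain gene Vpreb1 fell from 6.20, 6.39 and 6.35 to 4.54, 4.41 and 3.88 (-2.04 ± 0.13, adjusted p = 5.95e-09). Vpreb2, whose sequence is close to that of Vpreb1, fell by a like amount (-2.20 ± 0.13), and their signals may not be separate. The receptor gene Il7r, for the interleukin that B-cell precursors depend on, went from 2.24, 2.19 and 2.31 to 0.78, 0.93 and 0.76 (-1.42 ± 0.10). Cd79a, part of the B-cell receptor's signalling dimer, fell from -1.70, -1.70 and -1.75 to -2.53, -2.61 and -3.02, or 2.0-fold (standard error 0.29, adjusted p = 0.0105). The members that rose, Bst1 (0.42 ± 0.08), Crlf2 (0.29 ± 0.07) and Cd24a (0.23 ± 0.07), also have roles outside the B lineage. Cd24a was not called under quantile normalization (0.12) or without irradiated replicate 2 or 3 (adjusted p = 0.0584 and 0.0508).

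Among transcription factors of the lineage 11 of 21 fell and 3 rose. Ebf1, which specifies the B-cell fate, fell from 0.43, 0.35 and 0.38 to -1.76, -1.74 and -1.99, or 4.64-fold (-2.21 ± 0.14, adjusted p = 4.43e-09). Lef1 (-1.86 ± 0.13), Irf4 (-1.59 ± 0.12), Foxo1 (-1.10 ± 0.07) and Tcf3, which encodes E2A (-0.97 ± 0.08), fell. The inhibitor of E proteins, Id2, rose from 2.77, 3.01 and 2.88 to 3.91, 3.92 and 3.88 (1.02 ± 0.07). Mature B-cell genes were mixed, with 8 of 18 lower and 3 higher. Cd72 (-1.26 ± 0.11) and H2-Ob (-1.36 ± 0.20) fell, while Fcer2a, the IgE receptor CD23 of mature B cells, rose from -1.84, -1.58 and -1.77 to -0.43, -0.29 and -0.63 (1.28 ± 0.16, adjusted p = 1.37e-05). Plasma cell genes were mixed as well, with 6 of 13 lower, Slamf7 among them (-1.40 ± 0.15), and 3 higher, Jchain among them (0.55 ± 0.11). The plasma cell share of increases is near the 23.9% over all tested genes.

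Genes of T cells moved both ways, and those of natural killer cells rose. Over all tested genes 23.9% were higher and 22.1% lower, and the T-cell share of decreases is near the latter. Of 19 measured T-cell genes 7 rose, such as Cd3d (0.60 ± 0.13) and Cd3g (0.54 ± 0.10), and 5 fell (2 with the slide as a block or without irradiated replicate 3, 3 without unirradiated replicate 2 or 3), such as the homing receptor gene Ccr7 (-0.95 ± 0.13). Cd3e stood at -3.46, -3.38 and -1.68 before and -3.10, -3.52 and -3.08 after irradiation (-0.39 ± 0.36, adjusted p = 0.391), with unirradiated replicate 3 apart from the rest. Of 23 measured natural killer and cytotoxic genes 14 rose and 0 fell by limma, with a median of 0.49. Restricted to members well above background on all 18 arrays, 8 rose and 0 fell. The receptor gene Klrb1c rose from -1.25, -1.12 and -1.08 to -0.31, -0.28 and -0.43 (0.81 ± 0.16), and Gzma, a granzyme gene, by 0.61 ± 0.13. Ifng was at -2.54, -2.51 and -2.33 before and -1.92, -1.87 and -0.98 after irradiation (0.87 ± 0.21), with irradiated replicate 3 highest, and 0.57 without that array.

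Late neutrophil genes rose almost without exception and by small amounts, while early granulocyte genes mostly stayed within the error. Of 37 measured genes of secondary granules and late neutrophils 35 rose and 0 fell, with a median of 0.58, and their mean was 4.12, 4.21 and 4.25 before and 4.86, 4.86 and 4.71 after irradiation. Ltf, lactoferrin, rose from 8.55, 8.57 and 8.57 to 9.08, 9.03 and 8.93 (0.45 ± 0.09, adjusted p = 0.000536). The adhesion receptor gene Itgam (0.84 ± 0.08) and Lcn2, a binder of bacterial iron carriers (0.65 ± 0.11), rose further. Stfa3 of the stefin A cluster rose from 0.94, 1.34 and 1.1 to 2.22, 2.09 and 2.58 (1.17 ± 0.12); stefin A genes are close in sequence and their probes may share signal. Of 17 primary granule and early genes 5 rose and 12 did not pass, with a median of 0.10. Mpo, myeloperoxidase, stood at 8.60, 8.53 and 8.61 before and 8.61, 8.43 and 8.61 after irradiation (-0.03 ± 0.07, adjusted p = 0.75), and its arrays overlapped.

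Eosinophil genes (9 of 12 higher) and mast cell and basophil genes (9 of 13) rose by amounts like those of the neutrophil genes, with medians of 0.50 and 0.50. Ear1, an eosinophil ribonuclease gene with close relatives, rose by 0.61 ± 0.08, and Hdc, the histamine-forming enzyme gene, by 0.85 ± 0.10. Monocyte genes were less even, with 10 of 24 higher and 3 lower, led by Fn1 (-0.78 ± 0.17).

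Genes of resident macrophages and of iron recycling rose. Of 28 resident macrophage genes 20 rose and 0 fell by limma, with a median of 0.47, and the list mean went from 0.82, 0.76 and 0.62 to 1.26, 1.27 and 1.33. Hmox1, haem oxygenase 1, rose from 4.14, 4.19 and 3.81 to 5.58, 5.58 and 5.44, or 2.81-fold (1.49 ± 0.09, adjusted p = 2.89e-09). Marco, a scavenger receptor gene, rose from -0.08, -0.65 and -0.55 to 1.62, 1.30 and 1.43 (1.88 ± 0.14, adjusted p = 3.69e-08). Spic, the transcription factor gene of macrophages that take up red cells, rose from 1.81, 1.92 and 1.74 to 2.82, 3.11 and 3.02 (1.16 ± 0.08). Nr1h3, a sterol-sensing nuclear receptor gene, rose 2.86-fold (1.52 ± 0.10), and Mertk (0.76 ± 0.13) and Timd4 (0.64 ± 0.11), receptors for dying cells, rose by less. Gas6, a bridging ligand of Mertk, rose by 1.18 ± 0.15. Folr2 stood outside the pattern at -0.18 ± 0.22. Among all genes of haem and iron recycling 17 of 23 rose, with ferritin light chain gene Ftl1 at 0.52 ± 0.08, and 3 fell, none of them called without unirradiated replicate 1 or 3 or irradiated replicate 1 or 2. Of 35 uptake and scavenger genes 21 rose and 1 fell, Scarb1 (-0.40 ± 0.07), and of 26 complement and pentraxin genes 17 rose and 0 fell. The pattern-recognition protein gene Ptx3 rose 8.29-fold, from -3.92, -4.87 and -5.49 to -1.70, -2.23 and -1.20 (3.05 ± 0.31); it was well above background on 1 of the 3 unirradiated arrays, so this fold depends on signals near background.

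Interferon-stimulated genes rose modestly. Of 39 measured genes 25 rose and 0 fell by limma, none by 2-fold, with a median of 0.44 and no member below its unirradiated mean. Ly6e came closest to 2-fold, from 3.77, 3.79 and 3.69 to 4.84, 4.80 and 4.60 (1.00 ± 0.08, adjusted p = 5.41e-08). Rsad2, the antiviral protein viperin, rose from 5.80, 6.01 and 5.90 to 6.41, 6.73 and 6.50 (0.65 ± 0.10), and Oas3, a sensor of double-stranded RNA, from 0.05, 0.01 and 0.17 to 0.74, 0.68 and 0.49 (0.56 ± 0.11). Stat2, a subunit of the interferon-activated factor, stood at 2.32, 2.25 and 2.26 before and 2.26, 2.43 and 2.18 after irradiation (0.01 ± 0.10, adjusted p = 0.917). The interferon response element, searched as GAAA repeated after 2 bases of any kind on either strand, occurred in 13 of 29 matched promoters of the list (44.8%), against 3.8% of matched tested genes. Examples are shown with the element in capitals, 2 from genes that rose and 1 from Stat2.
Rsad2, chr12:26456543-26456592, minus strand: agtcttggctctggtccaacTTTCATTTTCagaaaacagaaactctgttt
Oas3, chr5:120777705-120777754, minus strand: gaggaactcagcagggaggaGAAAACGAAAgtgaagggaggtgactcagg
Stat2, chr10:128270256-128270305, plus strand: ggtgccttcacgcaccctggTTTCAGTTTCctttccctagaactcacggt
All 3 hold the letters within the 250 bases upstream, whether or not the gene's change passed the test. Guanylate-binding proteins and related GTPases rose in 6 of 15 (3 without unirradiated replicate 1 or irradiated replicate 2 or 3). Of 14 MHC class II genes 3 were higher and 3 lower, and of 19 class I genes 4 were lower, among them Psmb8 of the immunoproteasome (-0.38 ± 0.09). The shares of the MHC class I and class II lists are near or below those over all tested genes (23.9% higher and 22.1% lower).

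Several genes of secreted signals rose, among them chemokines that attract monocytes. Of 37 listed ligands 14 were not well above background and 22 were tested, of which 12 rose and 0 fell. Restricted to ligands well above background on all 18 arrays, 8 rose and 0 fell, so part of the count rests on genes dim in some group. Ccl2 went from -3.84, -3.76 and -3.99 to -1.07, -0.74 and -0.77, or 8.01-fold (3.0 ± 0.11, adjusted p = 4.45e-12). Its relatives Ccl12 and Ccl7 rose at least 1.88-fold and at least 1.41-fold. Ccl4 (1.38 ± 0.18), Ccl3 (1.03 ± 0.14) and the membrane-bound ligand gene Cx3cl1 (1.47 ± 0.16) rose, and Ccl8 did not pass (-0.19 ± 0.34). Among inflammatory cytokine genes 11 of 22 rose (7 without irradiated replicate 3), including Il18 (0.85 ± 0.08) and the interleukin 1 antagonist gene Il1rn (0.67 ± 0.12), and 3 fell. Il33, an alarmin gene, fell at least 2.11-fold and was not well above background on any irradiated array. Of 24 Toll-like receptor pathway genes 14 rose, with Tlr2 at 0.63 ± 0.08, and Traf6 was the member that fell (-0.70 ± 0.08). Immediate early genes rose in 14 of 30 and fell in 1, with the transcription factor genes Atf3 (1.68 ± 0.13) and Maff (1.57 ± 0.13) up 3.19-fold and 2.97-fold.

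Stromal, matrix and niche genes rose in the irradiated marrow. Of 31 fibroblast and pericyte genes 26 rose and 1 fell, with a median of 0.97, and 14 rose at least 2-fold, against 2.90% of all tested genes. The gelatinase gene Mmp2 rose from -3.97, -4.38 and -4.04 to -1.33, -1.69 and -1.37, or 6.36-fold (2.67 ± 0.20, adjusted p = 3.96e-08). Ccn2, a matricellular protein gene induced by TGF-beta and YAP, rose from -1.25, -1.52 and -1.82 to 1.90, 1.86 and 2.84, or 13.3-fold (3.73 ± 0.33, adjusted p = 3.33e-07), and its relative Ccn1 by 2.94 ± 0.45. Collagen genes rose in 11 of 21, such as Col3a1 (1.42 ± 0.27) and Col4a1 (0.85 ± 0.13), and Col5a3 fell (-1.58 ± 0.22), though its averaged probes gave -0.53 and no call. Osteoblast genes rose in 10 of 21, such as the bone sialoprotein gene Ibsp (1.09 ± 0.17), and endothelial genes in 17 of 31, such as Emcn (1.02 ± 0.13), with Icam2 lower (-0.51 ± 0.06).

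Among niche factors 17 of 26 rose and 1 fell. Restricted to members well above background on all 18 arrays, 11 rose and 1 fell. Cxcl12, which retains stem cells in the marrow, rose from 4.15, 3.67 and 3.75 to 4.55, 4.22 and 4.74 (0.65 ± 0.16, adjusted p = 0.00314). Kitl, stem cell factor, rose from -2.65, -3.19 and -3.18 to -2.16, -2.12 and -1.77 (0.99 ± 0.16, adjusted p = 0.000129), but the mean over its probes was 0.33 higher and not called. Igf1 rose from 0.35, 0.37 and 0.06 to 1.18, 1.23 and 1.24 (0.96 ± 0.09), while Tgfb1 fell (-0.43 ± 0.07). The inhibitor gene Id4 rose 3.84-fold (1.94 ± 0.19) and the Wnt co-receptor gene Lgr5 fell 2.91-fold (-1.54 ± 0.22). The bone gene Bglap, osteocalcin, was at 0.93, 1.03 and 2.33 before and 2.99, 2.02 and 2.24 after irradiation. Its arrays overlapped between the groups, with unirradiated replicate 3 above irradiated replicates 2 and 3. Those of the muscle gene Acta1 overlapped as well. How far the amount of bone and stroma recovered with each marrow sample took part in these increases was not tested.

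Red cell genes rose slightly, and by less on irradiated replicate 1. Of 17 haem synthesis genes 10 rose and 1 fell, of 21 red cell membrane genes 13 rose and 1 fell, and of 26 erythroid regulators 14 rose and 1 fell, with medians of 0.27, 0.28 and 0.30. The mean over the membrane list was 3.23, 3.21 and 3.23 before and 3.26, 3.59 and 3.65 after irradiation, over the haem list 4.14, 4.17 and 4.19 before and 4.19, 4.40 and 4.54 after, and over the regulators 3.60, 3.57 and 3.56 before and 3.68, 3.97 and 3.99 after. Alas2, the first enzyme of haem synthesis in red cells, rose from 7.70, 7.79 and 7.77 to 8.36, 8.43 and 8.26 (0.60 ± 0.08). Of 21 megakaryocyte and platelet genes 6 were higher, such as Thbs1 (0.77 ± 0.17), near the 23.9% over all tested genes, and 0 fell. The mean over that list overlapped between groups, at 1.13, 0.91 and 0.78 before and 0.77, 1.01 and 1.62 after irradiation, and its median of 0.13 was -0.11 without irradiated replicate 3. Stem and progenitor genes moved both ways, 10 up and 4 down of 31, with Cd34 (0.51 ± 0.08) higher and Myb (-0.53 ± 0.06) and Sox4 (-1.26 ± 0.08) lower. Their share of increases is not far above the 23.9% over all tested genes, and that of decreases is below the general 22.1%.

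Ribosome biogenesis genes fell by small amounts. Of 34 ribosome biogenesis genes 29 fell and 0 rose, with a median of -0.32; Ncl, nucleolin, went from 5.22, 5.13 and 5.20 to 4.66, 4.65 and 4.68 (-0.52 ± 0.06). Of 76 ribosomal protein genes 24 fell and 4 rose, with a median of -0.11, and of 53 respiratory chain genes 17 fell and 0 rose, with a median of -0.15. These shares of decreases compare with 22.1% over all tested genes, and most members of both lists did not pass. The decreases numbered 18 to 47 among ribosomal protein genes and 11, without unirradiated replicate 2 or 3 or irradiated replicate 2, to 24 among respiratory chain genes, apart from normexp on all 18 arrays, which gave 0 in both. The ribosomal protein increases numbered 1 without unirradiated replicate 2 or irradiated replicate 2 and with quantile normalization, and 2 without unirradiated replicate 1. Of 28 cholesterol synthesis genes 8 were lower, 3 were higher and 17 did not pass, with Sqle at -0.73 ± 0.12. That share of decreases is not far above the 22.1% over all tested genes. Histone genes fell in 10 of 16 and rose in 1. Of 33 antioxidant genes 20 rose, led by Hmox1, and 6 fell, led by Gpx2 (-0.87 ± 0.11). Of 30 heat shock genes 6 were higher and 9 lower, near the shares over all tested genes: the inducible Hspa1b (0.62 ± 0.23) rose, with a call that ended without any single array but irradiated replicate 3 (adjusted p = 0.0582 to 0.132) and under 6 other settings, while the cochaperone gene Fkbp4 (-0.74 ± 0.07) and the mitochondrial chaperonin gene Hspd1 (-0.38 ± 0.07) fell. Phgdh, the first enzyme of serine synthesis, fell from 4.27, 4.29 and 4.43 to 3.57, 3.51 and 3.58 (-0.78 ± 0.07).

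**Figure D3:**
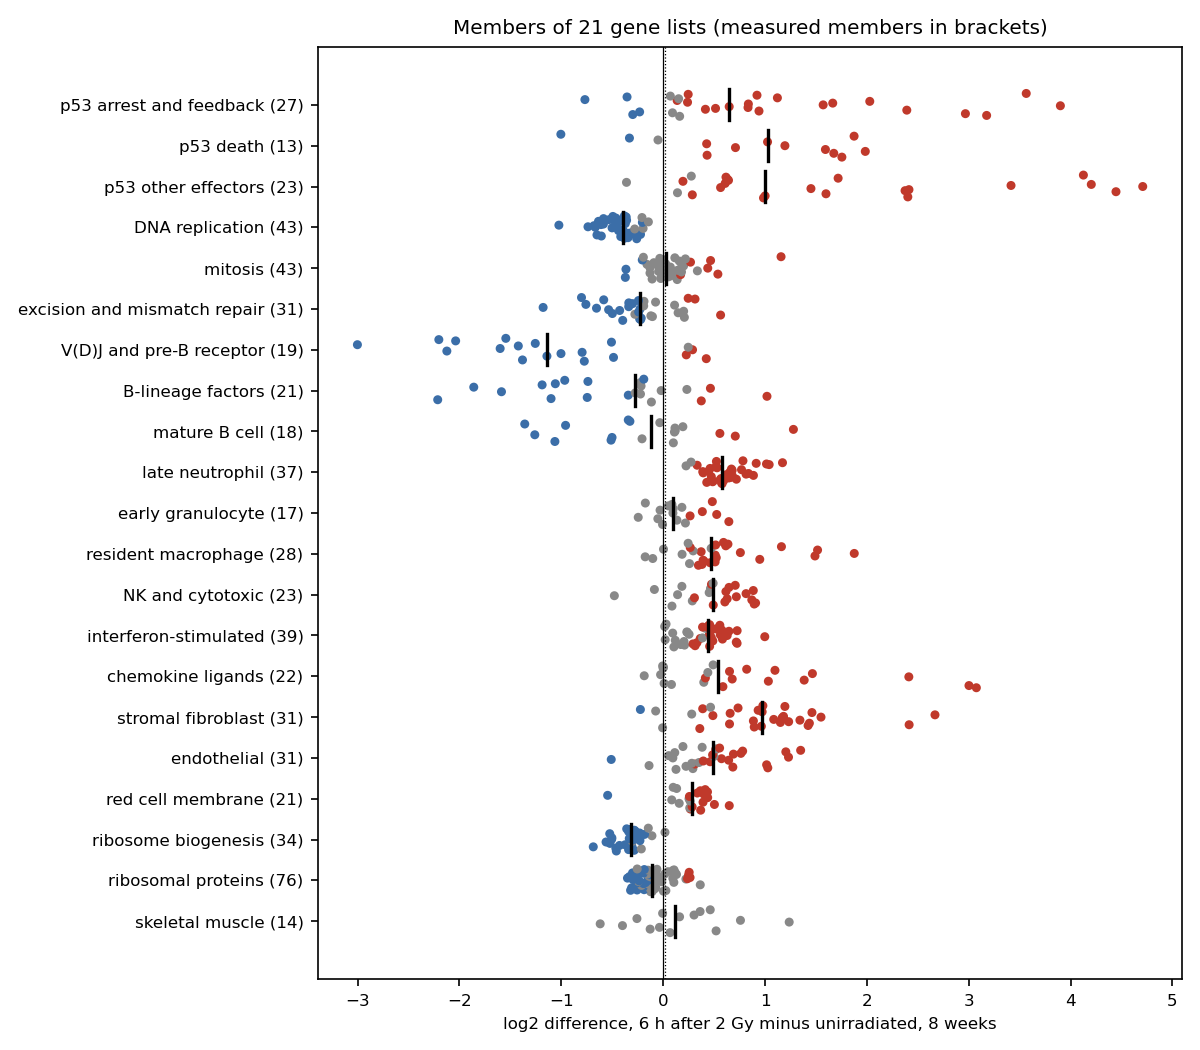
Each point is a measured member of 1 of 21 gene lists, placed by its log2 difference, 6 h after 2 Gy minus unirradiated at 8 weeks, with increases called by limma in red, decreases in blue and the rest in grey; black bars are list medians and the dotted line is the median of all tested genes. The V(D)J and pre-B receptor list has the lowest median (-1.14) and the p53 death list the highest (1.02), while the mitosis list centres on 0.02.

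Other large changes were in genes of varied function. Dnah2, an axonemal dynein gene, rose from -3.52, -3.55 and -3.52 to -0.52, -0.37 and -0.37 (3.11 ± 0.14), but another of its probes gave -0.45, so the increase rests on 1 probe. The carboxylesterase gene Ces2b rose at least 2.32-fold and the epidermal transcription factor gene Zfp750 at least 3.05-fold. Grb7, a signalling adaptor gene, had the largest decrease, from -0.70, -0.65 and -0.25 to -3.68, -3.61 and -4.59 (-3.43 ± 0.59, adjusted p = 0.000227). Smtnl2 fell from 0.56, 0.45 and 0.50 to -2.02, -2.16 and -3.04 (-2.91 ± 0.22). Ren1, renin, fell at least 2.36-fold, and Gpam, the first enzyme of glycerolipid synthesis, at least 1.90-fold.

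The same contrast was made in 1-week-old marrow, with arrays of its own, and the difference between the ages was tested as an interaction. It was called for 2210 of 11884 genes (18.6%), with the 8-week response the more positive in 1248 and the more negative in 962. Unirradiated replicate 2 of the 1-week group carried far more muscle and cartilage RNA than the rest, with Acta1 at 6.27 against -1.63 and -0.30 on its companions, and without it 1850 genes were called. With the slide as a block 1370 were called.

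The p53 lists had similar medians at the 2 ages. The values at 8 weeks and 1 week were 0.65 and 0.77 for arrest and feedback, 1.02 and 0.78 for death, and 1.00 and 0.97 for other effectors. Of the 63 measured members of these lists 9 had a higher and 10 a lower response at 8 weeks. Ccng1 differed by -0.09 and Zmat3 by 0.15, neither called, Hebp2 rose more at 8 weeks (difference 1.40, adjusted p = 8.89e-05) and Dglucy less (-0.72, adjusted p = 0.000226).

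Macrophage and stromal genes set the ages apart. The resident macrophage list had a median of 0.47 at 8 weeks and -0.13 at 1 week, and the response of 19 of its 28 genes was higher at 8 weeks, 19 also without that 1-week array and 17 with the slide block. Marco differed by 1.92, Timd4 by 1.63, Hmox1 by 1.48 and Spic by 1.38. The stromal list had medians of 0.97 and -0.16, and 19 of its 31 genes were higher at 8 weeks, 20 without the 1-week array and 18 with the slide block. Mmp2 rose from a mean of -4.13 to -1.46 at 8 weeks and from -1.18 to -0.91 at 1 week (difference 2.39), so the ages started apart and ended closer. Ccn2 did likewise, from -1.53 to 2.20 at 8 weeks and from 2.17 to 2.78 at 1 week (3.11).

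Mitosis genes had a median of 0.02 at 8 weeks and 0.37 at 1 week, and 15 of 43 had a lower response at 8 weeks and 0 a higher one. Ribosome biogenesis genes fell less at 8 weeks (-0.32) than at 1 week (-0.76), with 20 of 34 differing in that direction, 13 with the slide block. The V(D)J and pre-B receptor list had similar medians of -1.14 at 8 weeks and -1.06 at 1 week. Of its 19 genes 1 had a higher and 3 a lower response at 8 weeks, and 1 and 2 with the slide block. Rag1 was among those that fell further at 8 weeks (interaction difference -1.16, adjusted p = 8.67e-05).

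**Figure D4:**
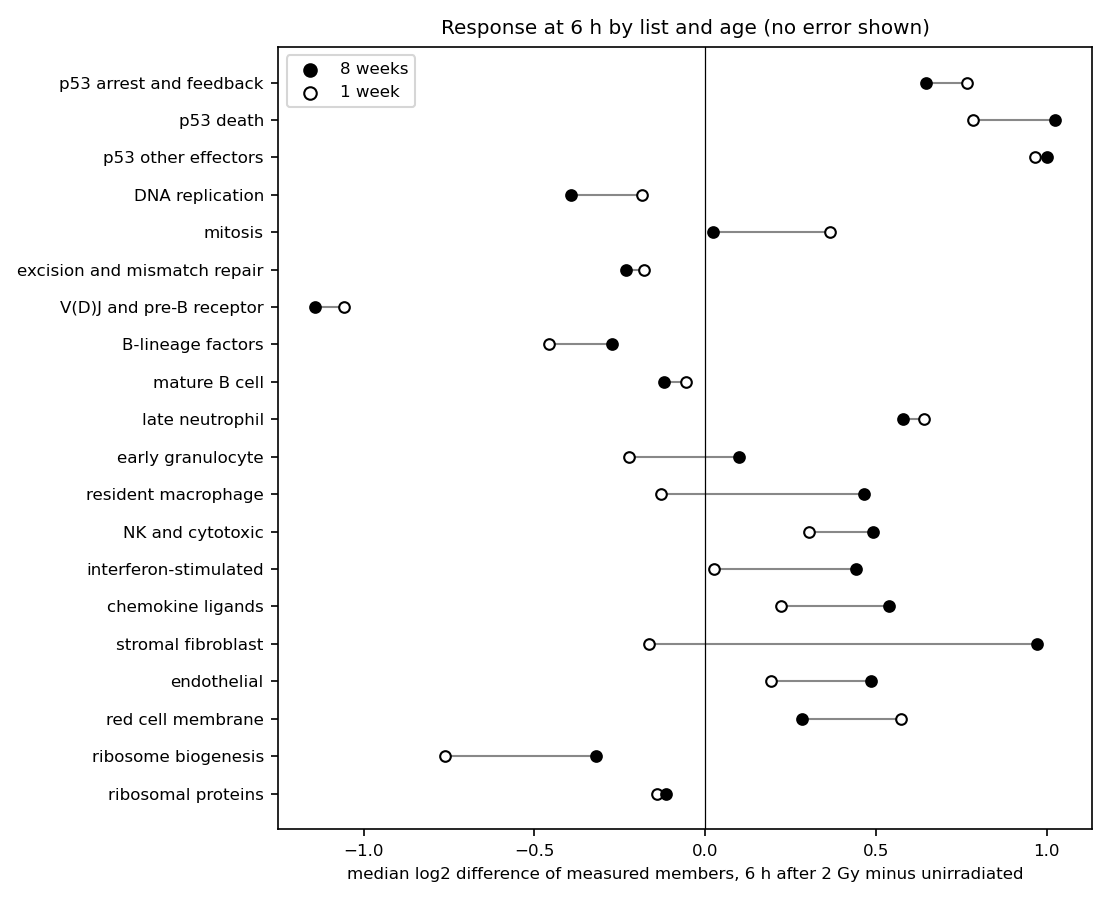
Each row is a gene list, with the median log2 difference of its measured members, 6 h after 2 Gy minus unirradiated, at 8 weeks (filled) and 1 week (open); no error is drawn. The resident macrophage (0.47 and -0.13) and stromal fibroblast (0.97 and -0.16) lists lie on opposite sides of 0 at the 2 ages, while the p53 lists lie close together.

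By 24 h after 2 Gy much of the 6 h pattern in 8-week marrow had moved again. The 24 h arrays were compared with the same 6 h arrays, so the values of the 2 comparisons are not independent and are given side by side. Between 6 h and 24 h 5872 of 11884 genes were called (49.4%), 3916 of them higher and 1956 lower at 24 h. Of the arrest and feedback genes 19 of 27 fell and 4 rose. Ccng1 was 3.18 higher at 6 h and then 0.79 lower at 24 h, while Cdkn1a was 2.97 higher and then changed by -0.16. Atf3 was 1.68 higher and then fell by 1.33.

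Replication genes came back, with 27 of 43 higher at 24 h and 0 lower, while 31 of 43 mitosis genes were lower and 0 higher. Pold2 was lower by -1.02 at 6 h and then rose by 1.15. Ribosome biogenesis (33 of 34 higher), ribosomal protein (64 of 76) and respiratory chain genes (47 of 53) rose, with Ncl at -0.52 and then 0.87. The V(D)J and pre-B receptor genes went on falling, with 10 of 19 lower and 1 higher, and Rag1 changed by -3.00 and then by -1.30. Resident macrophage genes went on rising, with 24 of 28 higher and 2 lower, and Marco changed by 1.88 and then by 1.45. Interferon-stimulated genes were higher in 30 of 39, with Oas3 at 0.56 and then 0.80. Natural killer genes came down in 7 of 23 and rose in 3, and Klrb1c changed by 0.81 and then by -1.02. Ccl2 was 3.0 higher at 6 h and then changed by 0.11.

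**Figure D5:**
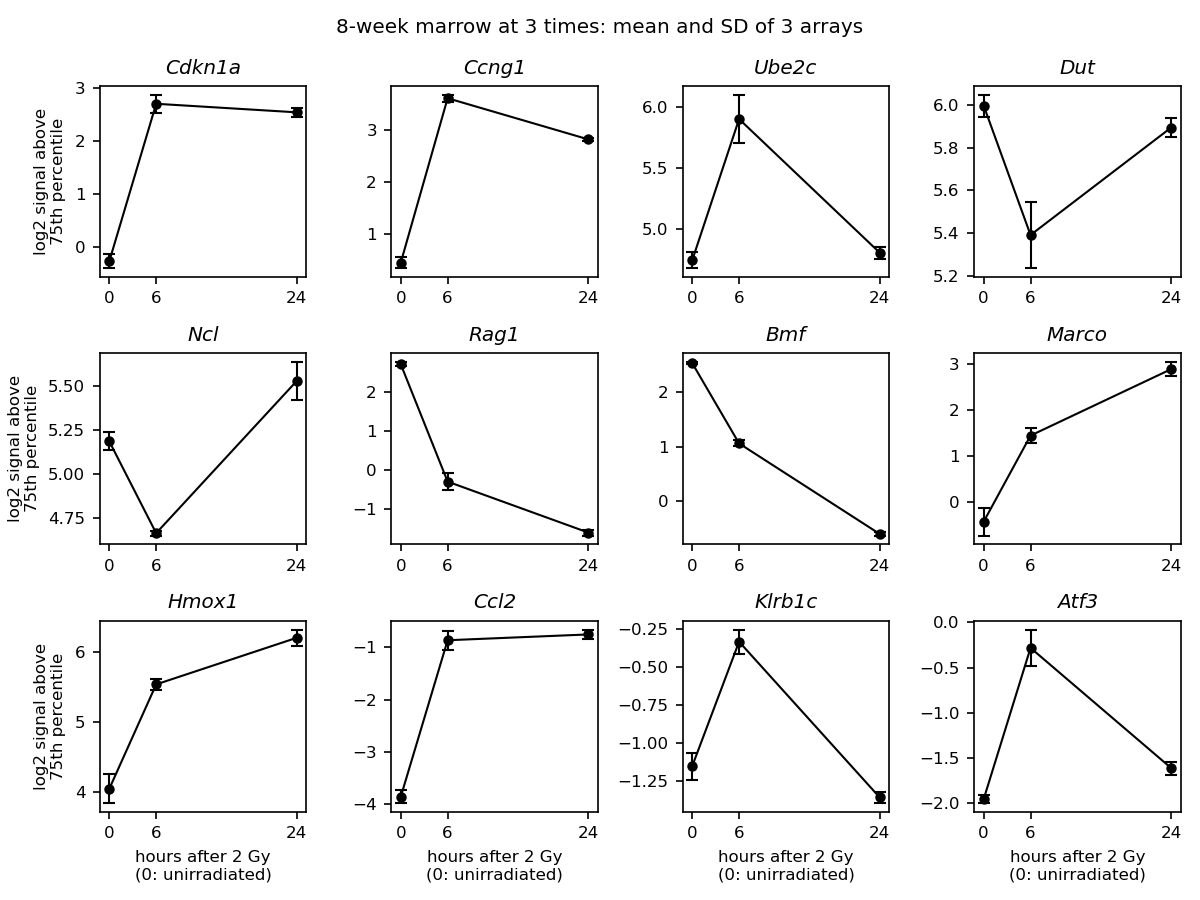
Each panel shows the mean and SD of 3 arrays of 1 gene in 8-week marrow, as log2 signal above the array's 75th percentile, unirradiated (drawn at 0 h) and at 6 h and 24 h after 2 Gy. Dut and Ncl dip at 6 h and return, Marco and Hmox1 keep rising, and Rag1 keeps falling.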

How the data were processed

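Total RNA of 18 marrow samples was labelled with Cy3 and hybridised to Agilent 1-colour arrays, per the labels' protocols. The authors deposited each array's scanner output, whose processed signal is an intensity, background-subtracted per the file headers; other columns are flags for spots well above background or outlying. The deposited series matrix holds log2 values and was used as an alternative. The file headers name Feature Extraction 9.5.1.1, the submitters' processing notes 11.5.1. Alignment to a genome does not apply.

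The log2 of each processed intensity was taken relative to the array's 75th percentile over 41174 non-control probes, spots of a probe being averaged. Of these, 24844 carried a symbol. A gene was represented by its probe with the highest mean over all arrays, and 11884 of 17178 genes were tested, leaving out 5286 that were well above background on every array of no group and 8 with an outlying spot. limma 3.58.1 in R 4.3.3 fitted the 6 groups with a trended prior on 12 residual degrees of freedom (prior 4.33). Contrasts were 6 h against control, its difference between ages, and 24 h against 6 h, with Benjamini-Hochberg adjustment at 0.05. On simulated data for the main contrast over 11884 genes, 69% of 100 genes changed by 0.5 on the log2 scale and 90% of 100 changed by 1 were recovered, and 6 unchanged genes were called. Far fewer genes changed there than the 46.0% called in the data, and the adjusted cutoff depends on that share. The rates therefore do not measure the sensitivity reached here. Intensities have no read depth: the share of probes above background was 51.5% to 56.9% on the 6 arrays. Promoter motifs were counted with Python 3.11.15 and figures drawn with matplotlib 3.10.9.

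Same-numbered arrays did not deviate together (correlations -0.267 to -0.068 for the 6 arrays here, 8 of 45 pairs over 0.1), so the numbers were not treated as pairs. Unirradiated replicate 1 and irradiated replicate 3 shared a slide, within which 5452 of the 5469 called genes had the same sign. Alternatives were other normalizations, background corrections, filters and probe summaries, the slide or replicate number as a block, the 6 arrays alone, and each array left out. The normexp correction was run on median signals because the mean signal column was not used here.

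Genes named are the 15 largest increases and 15 largest decreases that passed the test without overlap, from each of 70 lists the 6 smallest adjusted p, both extremes and members called against the majority, the 8 highest and 8 lowest age differences, and Trp53, Cdkn1a, Mdm2, Ccng1, Bax, Bbc3, Fas, Gdf15, Mcm2, Ccnb1, Rag1, Cd79a, Mpo, Ltf, Cd3e, Hmox1, Ccl2, Cxcl12 and Kitl. The arrays, gene lists and tests were chosen with earlier results of these data known.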

Additional observations from a re-analysis of the deposited data

Results flagged for a closer look

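The 6 h response differed between 8 and 1 weeks, by an interaction test in limma, for 2210 genes. That count was 1850 without unirradiated replicate 2 of the 1-week group and 1370 with the slide as a block. The 8-week response was higher than that at 1 week by 3.89 for Anxa8, 3.11 for Ccn2, 3.10 for Ddit4l, 2.88 for Pmp22, 2.85 for Mgp, 2.75 for Sobp, 2.39 for Mmp2 and 2.35 for Gpd1 on the log2 scale. Without unirradiated replicate 2 of the 1-week group, the array rich in muscle and cartilage RNA, all 8 were still called. All 8 differences were then smaller: Anxa8 2.47, Ccn2 2.68, Ddit4l 1.99, Pmp22 2.25, Mgp 1.83, Sobp 2.11, Mmp2 2.10 and Gpd1 1.39. With the slide as a block Anxa8 (adjusted p = 0.0759), Ddit4l (0.078), Mgp (0.152) and Gpd1 (0.103) were not called.

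The 8-week response was lower for Dnase1 (-2.54), Adam33 (-2.33), Plcd3 (-2.16), Rph3al (-1.99), Pla2g2d (-1.91), Ren1 (-1.76), Ido1 (-1.68) and Il2ra (-1.67). Adam33, Rph3al and Ido1 did not pass the test at 8 weeks itself. With the slide as a block Dnase1 (adjusted p = 0.149) and Il2ra (0.197) were not called, and Il2ra was not called without the 1-week array either.

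Probes without a gene symbol took no part in the comparisons above. Of 16330 such probes 6317 were tested, and 1624 were called (25.7%), 788 higher and 836 lower at 6 h.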

How the results depend on the processing

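For 6 h against unirradiated at 8 weeks, 5469 genes were called and 474 also differed at least 2-fold. Leaving out each array in turn gave 4491 to 5206 and 428 to 515 genes, and 1577 to 2106 for the age difference and 4950 to 5658 for 24 h against 6 h. Quantile normalization (5508), the 6 arrays alone (5098), the slide as a fixed (5231) or random block (5731), the deposited series matrix (5483) and no filter (5370 and 682) kept the first count within 1.5 times. The age difference fell to 1370 with the slide as a block; the cause was not tested. With the replicate number as a block the counts were 5414, 482, 2097 and 5807. Normexp on the median signal, added after seeing the data, gave 759 and 155. Its fit set a raised floor on replicate 3 of the 8-week 24 h group (first percentile -0.31 against -3.20 to -2.57 elsewhere). Without that array it gave 5207 and 167, so the first count rested on that array and the second hardly changed. Its offset draws low signals together, and how far this lowered the second count was not tested. Restricting to genes well above background on all 18 arrays left 252 genes past 2-fold, as fewer were tested. The sign turned for Steap3 (0.0201) and Poll (-0.0046) with normexp, and for Thy1 (0.0065), Pfkfb3 (0.0004) and the age difference of Dhcr7 (-0.0971) with probes averaged; the cause was not tested. The p53 promoter share went from 43.4% to 18.9% with 2 mismatches. Small counts moved most when 1 array was left out: the decreases fell to 2 among p53 arrest genes, 1 among p53 death genes and 0 among tumour necrosis factor and stromal genes. Normexp on the mean signal was not run. Signal over background limits genes given only as a bound.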

Other observations

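Genes of lipid handling and energy use had small medians. They were 0.37 for adipocyte and lipid genes, 0.13 for fatty acid oxidation and 0.17 for glycolysis and hypoxia. Single members changed further, among them Cpt1c and Gpam, whose bounds are given above. Of 22 adipocyte and lipid genes 10 rose, among them Pparg (0.82 ± 0.09), the nuclear receptor of fat storage, and Lpl, lipoprotein lipase (0.77 ± 0.07), and 3 fell. Of 21 fatty acid oxidation genes 8 rose and 1 fell. Glycolysis and hypoxia genes rose in 15 of 35 (9 without irradiated replicate 1) and fell in 5, with Adm, adrenomedullin, at least 3.92-fold higher and Ankrd37 lower (-0.88 ± 0.12). Autophagy and lysosome genes rose in 18 of 40, such as the cathepsin gene Ctsd (0.59 ± 0.06), and fell in 4 (1 without unirradiated replicate 1 or 2 or irradiated replicate 2 or 3).

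Clock and hormone-responsive genes were mixed. Of 17 clock genes 4 rose and 2 fell, with Arntl, the core activator, at -0.64 ± 0.10. Over all tested genes 23.9% were higher and 22.1% lower, so the clock counts are near or below the general shares. Of 21 glucocorticoid and metallothionein genes 9 rose and 3 fell. Of 30 genes of the integrated stress and unfolded protein responses 10 rose and 7 fell, the decreases near the general share. Dendritic cell genes moved little, with 3 of 15 higher and 2 lower, also near or below the shares over all tested genes. Osteoclast genes rose in 6 of 14, with Acp5 lower (-0.52 ± 0.11).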
